A study of Mus musculus with 12 samples.

Results

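The 37 genes described here carry fatty acids into the heart muscle cell, burn them in mitochondria and peroxisomes, store them in droplets or set the balance between fat and glucose. They were taken by name from the deposited count table, where all 37 were found among 55421 listed genes, and all 37 were among the 17376 genes with enough counts to be tested. Ventricular RNA of wild-type mice was sequenced as 12 libraries, 4 in each of 3 groups. The AngII_FI group received angiotensin II from an osmotic minipump under the skin together with Forsythoside I (FI), injected into the abdomen at 50 mg/kg every other day from the day before the pump until day 14. The AngII group received angiotensin II and the vehicle, and the saline group received saline and the vehicle. No group received FI without angiotensin II, and age and sex are not given in the labels. Nothing in the labels says whether the 4 libraries of a group came from separately housed or treated animals, so p-values measure only the spread between these libraries.

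Long-chain fatty acids are the main fuel of the adult heart. They are released from circulating triglyceride, taken up, joined to coenzyme A, passed into the mitochondrion as carnitine esters and shortened in the repeating steps of beta-oxidation, whose electrons leave through NADH and through electron transfer flavoprotein. Many of the genes involved are known targets of the nuclear receptors PPAR-alpha and ERR-alpha and their coactivator PGC-1-alpha, and lower fatty acid oxidation is a known feature of the hypertrophied and failing heart.

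The 12 libraries held 68874852 to 80624227 counts, and levels are given as CPM, the count scaled to the library total. AngII_FI 3 stood apart from the rest. Its 25 hepatocyte markers summed to 29595 CPM with 0 of 25 at a count of 0, while AngII 3 held 67.7 CPM with 0 of 25 at 0 and the other 10 libraries held 4.11 to 10.8 CPM with 6 to 16 of 25 at 0. For Xist, an RNA of the silenced X chromosome in female cells, AngII_FI 3 had 12419 counts, against 0 to 14 in each other library. Hepatocytes express many of the genes described here, so calls in each comparison that uses the AngII_FI group are given with and without AngII_FI 3. Unadjusted counts of AngII_FI against saline are given only with it.

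Levels were first ordered within saline ventricles. Divided by exon length, so that genes can be set against each other, the highest mean level in saline ventricles was that of Fabp3, the fatty acid binding protein of heart, at 3530.1 ± 177 CPM per kilobase of exon (SD, n = 4). Acaa2 at 562 ± 64.4, Acadl at 491 ± 62.4, Etfa at 412 ± 28.1 and Cd36 at 369.6 ± 40.04 CPM per kilobase came next in saline ventricles, and the intervals of mean ± SD of neighbours among these 4 overlapped. Cpt1b, the muscle form of the enzyme that commits fatty acids to the mitochondrion, stood at 111 ± 24.1 and Cpt1a, the form known from liver, at 3.53 ± 0.47 CPM per kilobase. Angptl4, an inhibitor of lipoprotein lipase, was lowest at 2.02 ± 1.75 CPM per kilobase. Genes with long rare isoforms are understated on this scale.

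Angiotensin II was set against saline to ask how these transcripts change in the hypertrophic model. Of the 37 genes, 5 fell and 0 rose at an adjusted p under 0.05 (edgeR quasi-likelihood test, Benjamini-Hochberg over all 17376 genes), where 0.662% of all tested genes fell and 1.57% rose. The 5 were Slc25a20 of the carnitine shuttle, Hadh, Hadhb and Acaa2 of the beta-oxidation cycle, and Etfdh of the electron transfer flavoprotein route. Without AngII_FI 3, which belongs to neither group and acts here through the gene filter, scaling and spread estimate alone, Hadha was the 6th called gene, where 1.37% of all genes fell and 2.49% rose.

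**Figure D1:**
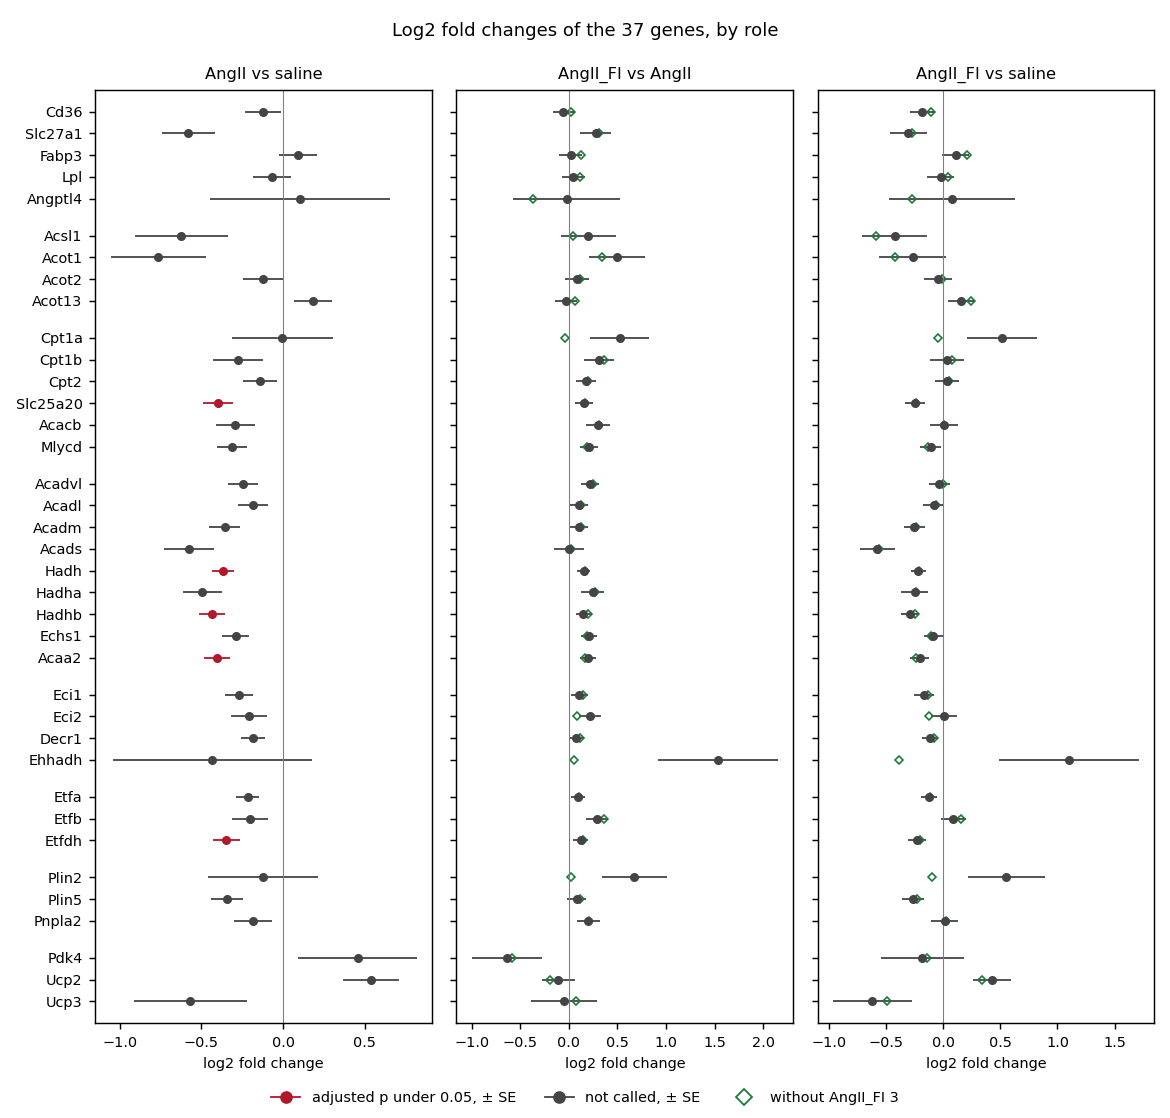
Log2 fold change of each of the 37 genes, one row per gene and grouped by role, in AngII against saline, AngII_FI against AngII and AngII_FI against saline (points with standard errors, 4 libraries per group; green open diamonds, without AngII_FI 3). The 5 called genes, in red, are in the first panel, where 32 of 37 points lie below 0, and the widest bars are those of Ehhadh and Angptl4.

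Below the threshold the list leaned the same way. The log2 fold change was below 0 for 32 of the 37 genes, with a median of -0.27 against 0.0047 over all tested genes. At an unadjusted p under 0.05, 19 were lower and 1 was higher, where 7.41% of all tested genes were lower and 9.37% higher. The 4 AngII values all lay below the 4 saline values for 14 of the 37, where this held for 4.56% of all tested genes, and all lay above for 2, where it held for 7.74%. The 14 were Acsl1, Slc25a20, Acadvl, Acadm, Hadh, Hadha, Hadhb, Echs1, Acaa2, Eci1, Decr1, Etfa, Etfdh and Plin5, and the other 2 were Acot13 and Ucp2.

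The 9 genes of the mitochondrial beta-oxidation cycle were all below 0, with a median log2 fold change of -0.37, and 3 of them fell. Hadh encodes the short- and medium-chain hydroxyacyl-CoA dehydrogenase, which catalyses the step that yields NADH (GRCm38 chromosome 3, 131233419 to 131272101, minus strand). Hadh had 493, 466, 447 and 503 CPM in AngII ventricles, against 592, 584, 609 and 647 CPM in saline ventricles. The groups did not overlap, and the log2 fold change was -0.37 ± 0.06 (SE, edgeR adjusted p = 0.0162). In AngII_FI ventricles Hadh had 462, 525, 527 and 509.6 CPM, within or a little above the AngII values and below every saline value.

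Hadha and Hadhb encode the subunits of the mitochondrial trifunctional protein, which handles long-chain intermediates. Hadhb (chromosome 5, 30155248 to 30184593, plus strand) had 1076, 993, 1016 and 1049 CPM in AngII ventricles, against 1391, 1278, 1353 and 1493 CPM in saline ventricles, with no overlap and a log2 fold change of -0.43 ± 0.08 (edgeR adjusted p = 0.0191). In AngII_FI ventricles Hadhb had 1023, 1178, 1053 and 1114 CPM, again below every saline value. Hadha (chromosome 5, 30118304 to 30155162, minus strand) had 751, 639, 626 and 757 CPM in AngII ventricles, against 889, 808, 997 and 1164 CPM in saline ventricles. The Hadha groups did not overlap and its log2 fold change was -0.50 ± 0.12, with an edgeR adjusted p of 0.0541, or 0.0422 without AngII_FI 3. In AngII_FI ventricles Hadha had 641, 884, 801 and 808 CPM and reached into the saline range.

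Acaa2 encodes the thiolase that releases acetyl-CoA (chromosome 18, 74779197 to 74806208, plus strand). Acaa2 had 664, 658, 609.6 and 677 CPM in AngII ventricles, against 780.1, 792, 844 and 992 CPM in saline ventricles, without overlap, and a log2 fold change of -0.40 ± 0.08 (edgeR adjusted p = 0.0280). In AngII_FI ventricles it had 631, 717, 814 and 704 CPM, and the 814 CPM of AngII_FI 3 alone reached into the saline range.

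The other 5 genes of the cycle had values that did not pass the test. Acads, the short-chain acyl-CoA dehydrogenase, had a log2 fold change of -0.58 ± 0.15 (edgeR adjusted p = 0.0729), with 175 CPM in AngII 1, 111 to 119 CPM in the other AngII libraries and 154 to 241 CPM in saline ventricles. The medium-chain enzyme Acadm stood at -0.36 ± 0.09, the hydratase Echs1 at -0.29 ± 0.08, the very long-chain enzyme Acadvl at -0.25 ± 0.09 and the long-chain enzyme Acadl at -0.18 ± 0.09 on the log2 scale. Acadvl shares 1151 of its 2686 exon bases with Dvl2 on the opposite strand, and the strand setting of the counting is not given in the sources used here.

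In the carnitine shuttle, 6 of 6 log2 fold changes were below 0 and 1 gene fell. Cpt1a was near 0 at -0.005 ± 0.31, with means of 27.3 CPM in AngII and 27.0 CPM in saline ventricles. Slc25a20, the carnitine-acylcarnitine translocase of the inner membrane (chromosome 9, 108662088 to 108684641, plus strand), had 135, 127, 125 and 147 CPM in AngII ventricles, against 168, 159, 173 and 196 CPM in saline ventricles. These did not overlap, and its log2 fold change was -0.40 ± 0.09 (edgeR adjusted p = 0.0445). In AngII_FI ventricles Slc25a20 had 122, 153, 146 and 146 CPM, below every saline value. The transferases on either side of the translocase did not pass, at -0.28 ± 0.15 for Cpt1b and -0.14 ± 0.10 for Cpt2 on the log2 scale. Acacb, which makes the CPT1 inhibitor malonyl-CoA, and Mlycd, which removes it, had log2 fold changes of -0.29 ± 0.12 and -0.31 ± 0.09 that did not pass either. Cpt1b shares 81.4% of its exon bases with the model Gm44502 on the same strand, so its count may be split.

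The route of electrons from the acyl-CoA dehydrogenases runs through the flavoprotein of Etfa and Etfb to its ubiquinone oxidoreductase, Etfdh. Etfdh (chromosome 3, 79603788 to 79629500, minus strand) had 559, 556, 539 and 609 CPM in AngII ventricles, against 717, 645, 702 and 779.6 CPM in saline ventricles, with no overlap and a log2 fold change of -0.35 ± 0.08 (edgeR adjusted p = 0.0467). In AngII_FI ventricles Etfdh had 543, 621, 591 and 592 CPM, below every saline value. Etfa was at -0.22 ± 0.07 and Etfb at -0.20 ± 0.11 on the log2 scale, and neither passed.

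**Figure D2:**
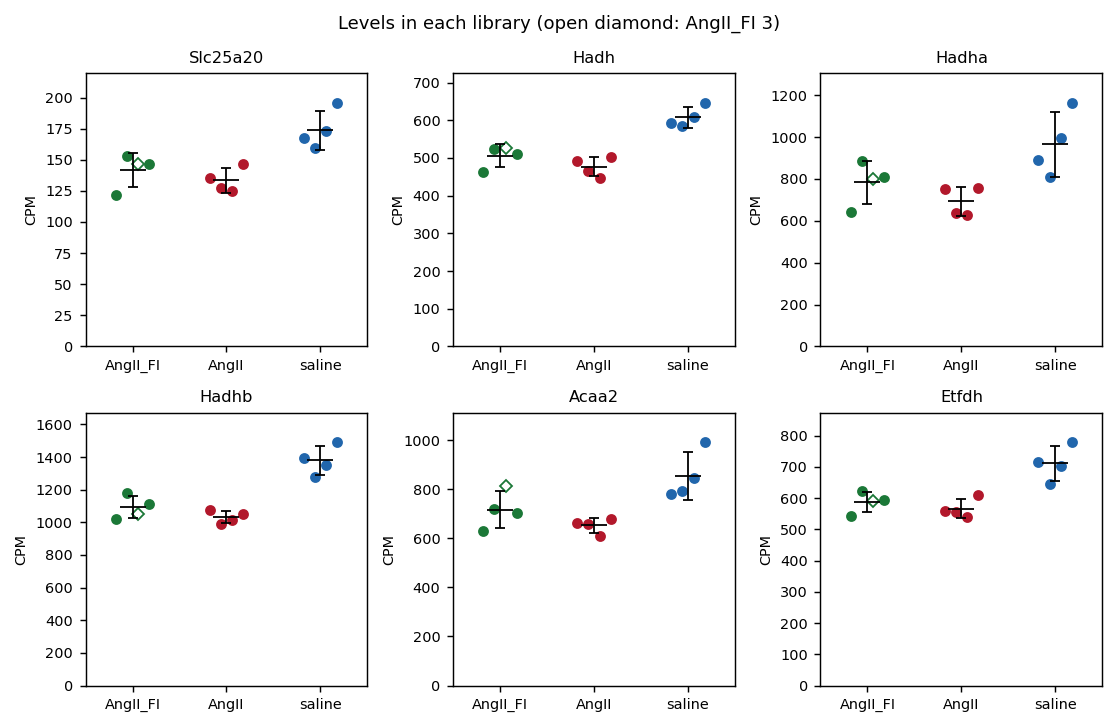
CPM of Slc25a20, Hadh, Hadha, Hadhb, Acaa2 and Etfdh in each library, by group (points; open diamond, AngII_FI 3; bars, mean and SD of 4 libraries). In each panel the 4 AngII points lie below the 4 saline points, and the AngII_FI points overlap the AngII points.

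In the reported fit the remaining role groups had 0 called genes in any comparison, and the gene with the smallest p of each is given in full. For AngII against saline, DESeq2 called Slc27a1 and Plin5 lower and Ucp2 higher. An edgeR fit of the AngII and saline libraries alone called Acsl1 lower. No share over all tested genes is given for these fits. For the auxiliary enzymes of unsaturated fatty acids the gene with the smallest p was Eci1, an enoyl-CoA isomerase. Eci1 had 177, 213, 201 and 222 CPM in AngII_FI ventricles, 196, 191, 193 and 211 CPM in AngII ventricles and 223, 218, 247 and 255 CPM in saline ventricles. The AngII values lay below the saline values, with a log2 fold change of -0.27 ± 0.09 (edgeR adjusted p = 0.130). Decr1, the dienoyl-CoA reductase, was also separated at 356 to 389 CPM in AngII ventricles and 409 to 426 CPM in saline ventricles, a log2 fold change of -0.18 ± 0.07.

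Among uptake genes the smallest p was that of Slc27a1, a fatty acid transport protein. Slc27a1 had 65.2, 90.1, 72.6 and 67.2 CPM in AngII_FI ventricles, 67.7, 62.8, 54.9 and 70.4 CPM in AngII ventricles and 65.9, 85.4, 104 and 124 CPM in saline ventricles. Saline 1 lay within the AngII range, and the log2 fold change of AngII over saline was -0.58 ± 0.16 (edgeR adjusted p = 0.0834). The more abundant uptake genes lay nearer 0: Cd36, the fatty acid translocase, at -0.12 ± 0.11, Lpl, lipoprotein lipase, at -0.07 ± 0.12 and Fabp3 at 0.09 ± 0.12 on the log2 scale.

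Among the enzymes that form or split acyl-CoA the smallest p was that of Acot1, a thioesterase whose sequence is close to that of Acot2, so reads may be shared between them. Acot1 had 7.48, 12.5, 14.2 and 6.93 CPM in AngII_FI ventricles, 10.8, 7.49, 6.15 and 6.03 CPM in AngII ventricles and 13.6, 6.51, 16.2 and 14.4 CPM in saline ventricles. Saline 2 lay within the AngII range, and the log2 fold change of AngII over saline was -0.76 ± 0.29 (edgeR adjusted p = 0.204). Acsl1, the main acyl-CoA synthetase of heart, had a log2 fold change of -0.62 ± 0.28 with no overlap between 302 to 508 CPM in AngII ventricles and 542 to 781 CPM in saline ventricles, and its edgeR adjusted p was 0.293.

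Of the lipid droplet genes the smallest p was that of Plin5, the droplet coat protein of oxidative tissues. Plin5 had 79.1, 101, 88.8 and 92.4 CPM in AngII_FI ventricles, 97.2, 83.5, 80.1 and 97.4 CPM in AngII ventricles and 102, 101, 122 and 124 CPM in saline ventricles. The AngII values lay below the saline values, with a log2 fold change of -0.34 ± 0.10 (edgeR adjusted p = 0.0924). Plin2, a droplet coat protein found in most tissues, stood at -0.12 ± 0.34 and the triglyceride lipase Pnpla2 at -0.18 ± 0.12 on the log2 scale.

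Genes of fuel choice and uncoupling did not lean the same way. Ucp2, an uncoupling protein of the inner membrane also expressed in immune cells, had 34.5, 32.8, 51.0 and 46.0 CPM in AngII_FI ventricles, 40.6, 47.7, 48.1 and 47.9 CPM in AngII ventricles and 21.8, 30.1, 40.6 and 34.0 CPM in saline ventricles. The AngII values were above the saline values by a narrow margin between AngII 1 and saline 3, and the log2 fold change was 0.54 ± 0.17 (edgeR adjusted p = 0.121). Pdk4, the kinase that shuts off pyruvate dehydrogenase, had a log2 fold change of 0.45 ± 0.36, and Ucp3, the uncoupling protein of muscle, of -0.57 ± 0.34.

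Pdk4, Ucp3 and Angptl4, singled out after their values were seen, were among the 4 genes whose coefficient of variation in saline ventricles was over 30%. Pdk4 had 463, 114, 241 and 212 CPM in saline ventricles, Angptl4 had 16.03, 2.05, 6.47 and 4.10 CPM and Ucp3 had 43.0, 16.04, 33.4 and 37.6 CPM. Saline 1 was highest and saline 2 lowest for all 3. Across the 37 genes the median coefficient of variation was 10.5% in AngII_FI, 7.41% in AngII and 12.7% in saline ventricles, and in saline ventricles it ran between 1.95% for Decr1 and 86.3% for Angptl4. Saline 4 was the highest of its group for 28 of the 37 genes and saline 2 the lowest for 21.

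**Figure D3:**
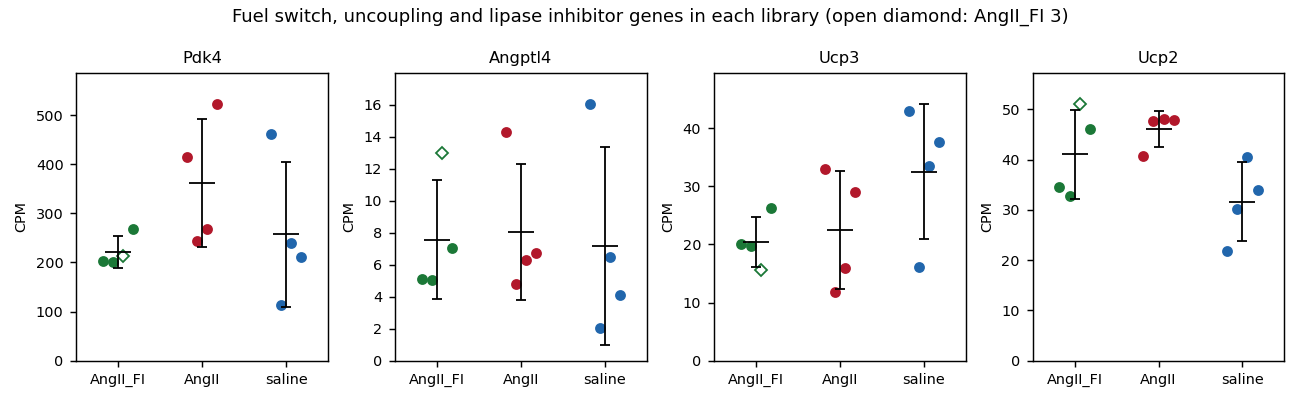
CPM of Pdk4, Angptl4, Ucp3 and Ucp2 in each library, by group (points; open diamond, AngII_FI 3; bars, mean and SD of 4 libraries). Saline 1, the first saline point, is highest and saline 2 lowest for Pdk4, Angptl4 and Ucp3, and Ucp2 is the gene whose AngII points lie above the saline points.

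The number of calls depended on the fit, with 12 lower by DESeq2, 2 with no filter on low counts and 0 with replicate number as a block. Shares over all tested genes are given only for the reported fit and the fit without AngII_FI 3. Counts under the other fits therefore cannot be set against all genes. Over the 12 fits that each left out 1 library, Hadh and Hadhb were called in 8, Acaa2 in 6, Slc25a20 in 3 and Etfdh in 2. Hadh lost its call without saline 1, saline 4, AngII 2 or AngII 3, with adjusted p of 0.0509 to 0.0603, and 0 of the 37 were called without saline 1, saline 4 or AngII 2, 1 without AngII 3 or AngII 4 and 3 without AngII 1 or AngII_FI 4. Acads was called without saline 3 or AngII 1, and Hadha without saline 2, AngII_FI 1 or AngII_FI 3.

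The promoter windows of 4 called genes are shown to let a reader see the sequence at the annotated RefSeq starts of genes that fell together. RefSeq (GRCm38.p6) windows of 300 bases, 250 before and 50 after the annotated start, were used for 31 of the 37 genes, some with more than 1 start, in 35 windows. Acaa2, also called, was not among these 31. Windows on its chromosome were not used for the 37 genes, but remain among all RefSeq windows. Those of 4 called genes follow, 5′ to 3′ on the gene's strand, with each GC box (GGGCGG, a site of the Sp1 family, read on both strands) in capitals. The windows are chr3:79628718-79629017 (minus strand) for Etfdh, chr3:131272052-131272351 (minus strand) for Hadh, chr5:30155003-30155302 (plus strand) for Hadhb and chr9:108661886-108662185 (plus strand) for Slc25a20. That of Etfdh lies wholly inside the gene as annotated in GENCODE, downstream of its GENCODE start at 79629500. Those of Hadh, Hadhb and Slc25a20 span their GENCODE starts.
Etfdh: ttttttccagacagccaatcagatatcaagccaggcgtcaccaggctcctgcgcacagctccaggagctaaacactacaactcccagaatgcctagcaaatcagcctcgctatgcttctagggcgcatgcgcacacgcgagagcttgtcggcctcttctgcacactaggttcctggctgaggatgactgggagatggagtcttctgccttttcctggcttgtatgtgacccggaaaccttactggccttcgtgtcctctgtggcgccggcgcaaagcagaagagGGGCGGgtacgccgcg
Hadh: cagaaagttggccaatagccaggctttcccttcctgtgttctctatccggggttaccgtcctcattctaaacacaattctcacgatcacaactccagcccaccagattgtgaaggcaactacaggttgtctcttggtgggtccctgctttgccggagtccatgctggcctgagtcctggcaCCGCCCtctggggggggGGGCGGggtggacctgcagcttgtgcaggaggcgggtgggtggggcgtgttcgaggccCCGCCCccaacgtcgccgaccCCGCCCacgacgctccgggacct
Hadhb: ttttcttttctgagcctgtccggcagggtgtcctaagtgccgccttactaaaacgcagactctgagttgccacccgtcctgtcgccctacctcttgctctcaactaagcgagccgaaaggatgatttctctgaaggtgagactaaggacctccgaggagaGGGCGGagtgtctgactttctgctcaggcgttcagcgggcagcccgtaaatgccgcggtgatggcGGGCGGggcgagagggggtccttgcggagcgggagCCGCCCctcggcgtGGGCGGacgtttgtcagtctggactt
Slc25a20: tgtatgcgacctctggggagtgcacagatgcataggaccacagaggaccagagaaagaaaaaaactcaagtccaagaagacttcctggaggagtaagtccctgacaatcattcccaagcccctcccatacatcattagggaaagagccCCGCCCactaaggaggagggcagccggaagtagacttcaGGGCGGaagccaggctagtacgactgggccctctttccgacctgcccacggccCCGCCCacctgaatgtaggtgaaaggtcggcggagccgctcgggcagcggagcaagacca

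The GC box was in 24 of the 35 windows, 4 times each in those of Hadh and Hadhb, and in 35.7% of all 32851 RefSeq windows. The core nuclear receptor site (AGGTCA, both strands) was in 10 of 35 and in 16.3% of all windows. The longer ERR element (TNAAGGTCA, both strands), which contains that core, was in 0 of 35 and in 1.28% of all windows. Hadha and Hadhb lie head to head with 85 bases between their annotated gene starts in GENCODE, and their RefSeq windows share 228 bases.

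Levels in whole ventricle also depend on which cells the tissue holds, and fewer muscle cells and less RNA per muscle cell cannot be told apart in bulk libraries. The 9 beta-oxidation genes summed to 5599.6 to 6835 CPM in AngII_FI ventricles, 5609 to 6186 CPM in AngII ventricles and 6819.99 to 8661 CPM in saline ventricles. The 12 cardiomyocyte markers, none at 0 in any library, summed to 43390 to 54422 CPM in AngII_FI, 40495 to 46135 CPM in AngII and 45162 to 57498 CPM in saline ventricles. With angiotensin II, 10 of these 12 were below saline, with a median log2 fold change of -0.19, and 0 passed the test.

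Per 100 CPM of cardiomyocyte markers, the beta-oxidation genes summed to 11.8 to 12.8 CPM in AngII_FI 1, 2 and 4 and 15.0 CPM in AngII_FI 3, to 12.2 to 14.3 CPM in AngII ventricles and to 14.9 to 15.4 CPM in saline ventricles. The AngII values lay below the saline values on this ratio. All 37 genes together gave 32.95 to 35.6 CPM in AngII_FI 1, 2 and 4 and 40.1 CPM in AngII_FI 3, 36.7 to 42.1 CPM in AngII ventricles and 37.9 to 40.8 CPM in saline ventricles, so AngII and saline overlapped for the whole list. Myh6 made up 19.6% of the marker sum, and without it the ratios of the 9 genes were 14.8 to 17.7 in AngII and 17.8 to 19.5 CPM in saline ventricles. Against only Tnnt2, Tnni3, Actn2, Ttn and Ryr2, a choice made after the values were seen, they were 55.9 to 66.2 in AngII and 65.9 to 70.9 CPM in saline ventricles and overlapped. Among markers of other cells, 5 of 9 macrophage and 3 of 8 fibroblast genes rose with angiotensin II and 0 of 8 endothelial genes passed, with no marker of the 3 lists at 0. Macrophage markers summed to 318 to 361 CPM in AngII and 194 to 242 CPM in saline ventricles, and fibroblast markers to 2145 to 2415 CPM in AngII and 1621 to 2185 CPM in saline ventricles. Adipocyte markers summed to 683 to 893 CPM in AngII and 543 to 594 CPM in saline ventricles without overlap, with 4 of 4 tested markers above 0 and 0 past the test. Most of that sum was Fabp4, also an endothelial gene, at 743 ± 85.7 CPM in AngII and 551 ± 24.98 CPM in saline ventricles, while 3 to 6 of 10 adipocyte markers were at 0 in AngII and 5 to 7 in saline libraries, Lep in all of them. Of the brown adipocyte markers 1 of 4 tested rose, Dio2, with Ucp1 at 0 in every library of these groups except AngII 3 and sums of 221 to 313 CPM in AngII and 235 to 254 CPM in saline ventricles. Skeletal muscle markers summed to 554 to 837 CPM in AngII and 119 to 326 CPM in saline ventricles, and 1 of 5 tested rose. This was Acta1, which cardiac muscle also expresses, and 2 to 6 of 9 of these markers were at 0 in AngII and 3 to 5 in saline libraries, Myh2 in all of them. The part of these cell types in the levels of the 37 genes was not tested.

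**Figure D4:**
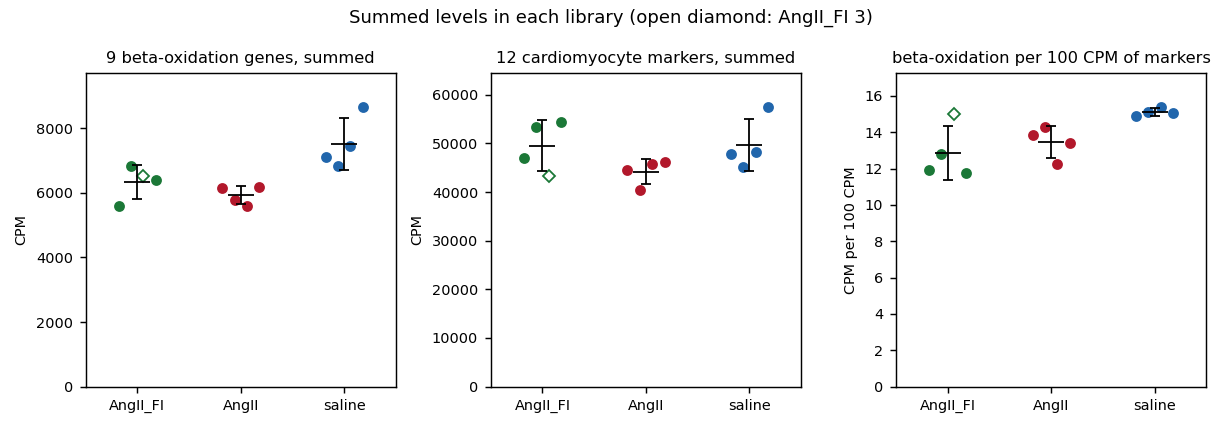
Summed CPM of the 9 beta-oxidation genes, summed CPM of 12 cardiomyocyte markers, and the first per 100 CPM of the second, in each library (points; open diamond, AngII_FI 3; bars, mean and SD of 4 libraries). The AngII points lie below the saline points for the sum and for the ratio, while the marker sums of the groups overlap, and AngII_FI 3 has the highest ratio of its group at 15.0.

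Other genes of the pathway were counted beside the 37. Of 36 tested genes of fatty acid handling outside the 37, 0 fell and 1 rose with angiotensin II, with a median log2 fold change of -0.19. The gene that rose was Gpihbp1, the endothelial anchor of lipoprotein lipase, at 87.3 ± 4.91 CPM in AngII and 60.3 ± 9.08 CPM in saline ventricles (SD, n = 4 each), a log2 fold change of 0.52 ± 0.11 (edgeR adjusted p = 0.0385). Of 7 tested PPAR targets outside the 37, 1 fell, Tmem143, at 60.98 ± 4.08 CPM in AngII and 80.3 ± 5.45 CPM in saline ventricles, a log2 fold change of -0.42 ± 0.08 (edgeR adjusted p = 0.0267). Of 20 regulators of fatty acid oxidation, 0 passed, 16 were below 0 and the median was -0.16. Ppara had a log2 fold change of -0.44 ± 0.32, Esrra of -0.17 ± 0.08 and Ppargc1a, which encodes PGC-1-alpha, of 0.07 ± 0.14. Fatty acid synthesis (13 genes, median -0.01) and triglyceride and droplet genes (20 genes, median -0.12) had 0 called. Without AngII_FI 3, Acsl5, Fabp5 and Elovl1 were also called higher and Acad11 and Rxrg lower.

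AngII_FI was set against AngII to ask what FI changes under angiotensin II. Of the 37 genes, 0 were higher and 0 lower, as were 0% of all tested genes in either direction by edgeR. Both limma-voom and DESeq2 also called 0 of the 37, with no share over all tested genes given for these fits. The log2 fold change was above 0 for 30 of 37, with a median of 0.15 against 0.018 over all tested genes. This comparison shares the AngII libraries with that of AngII against saline, so their directions are not independent. At an unadjusted p under 0.05, 8 were higher and 0 lower, where 5.46% of all tested genes were higher and 4.49% lower. The groups overlapped for all 37, where AngII_FI lay above AngII without overlap for 0.858% of all tested genes and below it for 5.12%, and the smallest edgeR adjusted p was 0.441.

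The 8 genes were Acacb, Mlycd, Acadvl, Hadh, Echs1, Acaa2, Ehhadh and Etfb. Etfb, a subunit of electron transfer flavoprotein, had the smallest p, with 348, 417, 345 and 413 CPM in AngII_FI ventricles, against 295, 331, 307 and 371 CPM in AngII ventricles, and a log2 fold change of 0.29 ± 0.11. AngII 4 lay within the AngII_FI range. Etfb shares 53% of its exon bases with the model Gm45233 on the same strand. Hadh had a log2 fold change of 0.15 ± 0.06, Acaa2 of 0.20 ± 0.08 and Acacb of 0.30 ± 0.12 in this comparison. Without AngII_FI 3 these were 0.16 ± 0.07, 0.17 ± 0.09 and 0.30 ± 0.13, and that of Etfb was 0.36 ± 0.11.

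Without AngII_FI 3 there were again 0 called of 37, where 0% of all tested genes were higher and 0.00565% lower. The log2 fold change was then above 0 for 33, with a median of 0.12. At an unadjusted p under 0.05, 6 were higher, where 3.37% of all tested genes were higher. These 6 were Acacb, Cpt1b, Acadvl, Hadh, Hadhb and Etfb. Mlycd, Echs1, Acaa2 and Ehhadh passed that cut only with AngII_FI 3, and Cpt1b and Hadhb only without it. Of the 12 cardiomyocyte markers, 11 were above 0 with and without AngII_FI 3, with a median log2 fold change of 0.13 with it and 0.21 without it, and 0 passed. Per 100 CPM of these markers, AngII_FI 1, 2 and 4 lay below every AngII library for the 37 genes summed, at 32.95 to 35.6 against 36.7 to 42.1 CPM. AngII_FI 3 was at 40.1 CPM, within the AngII range. For the 9 beta-oxidation genes summed, AngII_FI and AngII overlapped on this ratio. All 8 endothelial markers were below 0 in both fits and 0 passed, with summed levels of 573 to 657 CPM in AngII_FI 1, 2 and 4, 545 CPM in AngII_FI 3 and 697 to 921 CPM in AngII ventricles. Their part in the values of the 37 genes was not tested. Of genes altered in simulated counts with the spread of these libraries, this comparison found 6 of 65 at 1.5-fold and 27 of 61 at 2-fold. Most differences seen here were smaller than either size. The altered genes were drawn at random from all tested genes, with AngII_FI 3 in the spread, so these rates were not measured for the 37 genes.

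AngII_FI 3 held the highest of the 12 values for 5 of the 37 genes and the lowest for 3. Ehhadh, the peroxisomal bifunctional enzyme, had 7.77, 9.76, 85.3 and 11.1 CPM in AngII_FI ventricles and 7.77 to 15.4 CPM in the 11 libraries other than AngII_FI 3. Plin2 had 128 CPM in AngII_FI 3 and 30.9 to 43.3 CPM in the others. Cpt1a had 78.3 CPM in AngII_FI 3 and 22.7 to 31.9 CPM in the others. All 3 are known to be expressed in hepatocytes, and Eci2 and Ucp2 were highest there as well, at 133 and 51.0 CPM.

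Fabp3, Cd36 and Acot13 had their lowest values in AngII_FI 3, at 2483, 997 and 217 CPM. The fold changes of AngII_FI over AngII followed that library: that of Ehhadh was 1.53 ± 0.62 on the log2 scale with it and 0.05 without it, that of Plin2 was 0.67 ± 0.34 and 0.02, and that of Cpt1a was 0.52 ± 0.31 and -0.04. Fatty acid synthesis genes outside the 37 had a median log2 fold change of 1.03 with it and -0.18 without it, with 0 of 13 called in both.

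**Figure D5:**
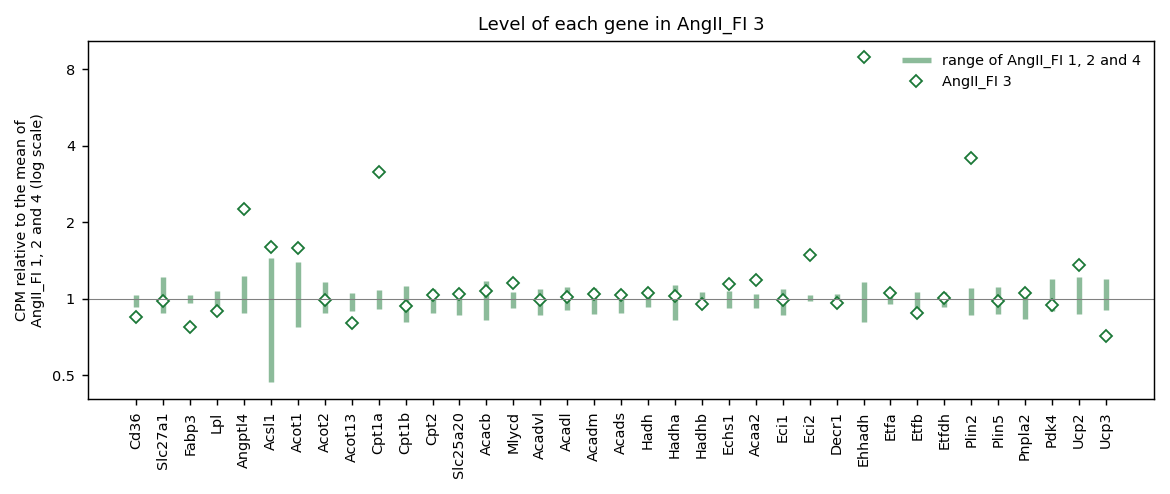
CPM of each of the 37 genes in AngII_FI 3 divided by the mean of AngII_FI 1, 2 and 4, on a log axis (open diamonds), with the range of those 3 libraries as bars. Ehhadh stands 8.93-fold, Plin2 3.57-fold and Cpt1a 3.15-fold above that mean, while the 9 genes of the beta-oxidation cycle lie between 0.954 and 1.19 times it.

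AngII_FI against saline asks how far the treated ventricles stood from the saline ones. Of the 37 genes, 0 were higher and 0 lower by edgeR, where 0.719% of all tested genes were higher and 0.259% lower. DESeq2 called Acads, Hadh and Hadhb lower, and limma-voom called 0, with no share over all tested genes given for these fits. At an unadjusted p under 0.05, 1 was higher and 8 lower, where 10.4% of all tested genes were higher and 6.92% lower. The median log2 fold change was -0.11 against 0.024 over all tested genes. Without AngII_FI 3 the median was -0.12 against -0.0081. This comparison shares the AngII_FI libraries with the previous one and the saline libraries with the first.

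The 9 genes of the beta-oxidation cycle were again all below 0. Acads had the smallest adjusted p, with 108, 133, 127 and 128 CPM in AngII_FI ventricles, against 183, 186, 154 and 241 CPM in saline ventricles, no overlap and a log2 fold change of -0.58 ± 0.15 (edgeR adjusted p = 0.0932). Hadhb stood at -0.29 ± 0.08, Hadh at -0.22 ± 0.06, Slc25a20 at -0.25 ± 0.09, Etfdh at -0.23 ± 0.08 and Acaa2 at -0.20 ± 0.08 on the log2 scale, none past the threshold. Without AngII_FI 3, Acads stood at -0.56 ± 0.17 (edgeR adjusted p = 0.122), again the smallest. Hadhb then stood at -0.25 ± 0.08, Hadh at -0.21 ± 0.07, Slc25a20 at -0.23 ± 0.10, Etfdh at -0.21 ± 0.09 and Acaa2 at -0.24 ± 0.09. Acadvl at -0.03 ± 0.09, Cpt2 at 0.03 ± 0.10 and Pnpla2 at 0.01 ± 0.12 had values near 0 with AngII_FI 3. Without that library they were at -0.004, 0.05 and 0.02.

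The AngII_FI values lay below all saline values for 8 of the 37 genes, where this held for 6.06% of all tested genes, and above them for 0, where it held for 3.52%. The 8 were Slc25a20, Acadm, Acads, Hadh, Hadhb, Decr1, Etfa and Etfdh. Without AngII_FI 3 these were 10, with Acaa2 and Eci2 added, where this held for 11% of all tested genes, and 1 gene, Fabp3, lay above all saline values, where 4.72% did. By edgeR 0 of 37 were called without AngII_FI 3, where 0.932% of all tested genes were higher and 0.311% lower. Ehhadh stood at 1.10 ± 0.61 on the log2 scale over saline with AngII_FI 3 and at -0.39 without it.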

How the data were processed

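RNA sequencing of 12 ventricle samples was analysed, 4 per group by the treatment label. The deposited values are raw counts of the authors, 1 column for each library and 1 row for each gene. The submitters' processing notes name HISAT, featureCounts 1.5.0-p3, DESeq 1.8.3 and GRCm38. How strand and multi-mapping reads were handled, and which annotation was counted, is not given in the sources used here. Overlapping and near-identical genes are therefore uncertain. The labels' protocols name TRIzol in one place and an RNeasy kit in another for the extraction.

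CPM is the count scaled to the library total, and its SD is over 4 libraries. Total counts were 68874852 to 80624227, of which 29.15% (AngII_FI 3) to 38.8% fell on mitochondrially encoded genes. After filterByExpr and TMM scaling, edgeR 4.0.16 (R 4.3.3) fitted all 12 libraries together with a mean per group and no covariate, and its quasi-likelihood p-values were adjusted by Benjamini-Hochberg over 17376 genes (17702 without AngII_FI 3). The biological coefficient of variation was 0.343, and 0.269 without AngII_FI 3. Coordinates, exon lengths and overlaps came from GENCODE M21 (GRCm38), which matched 99.5% of the IDs. The labels do not say that replicate numbers pair the libraries, and the reported fit used no pairing. Correlations of same-numbered libraries, as deviations from their group means, were -0.0572 to 0.105.

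The 37 genes and all lists were chosen with earlier results of these data known. Genes called in any comparison, and otherwise the gene with the smallest p in its role group, are given in every library. Tested on simulated counts of 16953 genes for AngII against saline, the fit found 6 of 52 genes altered by 1.5-fold, 27 of 76 by 2-fold and 50 of 67 by 4-fold. These genes were drawn at random from all tested genes, so the rates are not those of the 37 genes. Alternatives were DESeq2 1.42.0, limma-voom (limma 3.58.1), other scalings, filters and designs, and each library left out. Leaving out AngII 3 and AngII_FI 3 together, and summing overlapping gene models, were chosen after seeing the data.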

Additional observations from a re-analysis of the deposited data

Results flagged for a closer look

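Of 111 gene and group combinations (37 genes in 3 groups of 4), 7 had 1 library set far from the other 3 by Dixon's criterion, which chance alone meets in about 1 of 20. In AngII_FI 3, which also held hepatocyte transcripts, Cpt1a stood at 78.3 CPM (the other AngII_FI libraries at 22.7 to 26.99), Eci2 at 133 (87.7 to 92.2), Ehhadh at 85.3 (7.77 to 11.1) and Plin2 at 128 (30.9 to 39.4). Pnpla2 had 164 CPM in AngII_FI 1, against 207 to 215 CPM in the other AngII_FI libraries. In AngII 1, Acads had 175 CPM, against 111 to 119 CPM in the other AngII libraries, and Ucp2 had 40.6 CPM, against 47.7 to 48.1 CPM.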

How the results depend on the processing

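With AngII over saline, 5 of the 37 genes were lower in the reported fit, 12 with DESeq2, 3 when scaled by library totals only, 2 with no filter on low counts, 0 with the replicate block, 2 without AngII 3 and AngII_FI 3 together (an alternative chosen after seeing the data), and 0 to 6 when each library was left out. The labels do not say that replicate numbers pair the mice. In 24 settings of a library against the 4 libraries of another group, the library correlated best with its own number in 8. Whether the numbers pair the libraries is not settled by this. Under the block and under DESeq2, 1 gene, Ucp2, was also called higher, against 0 in the reported fit. Between AngII_FI and saline, 0 were lower in the reported fit, 3 with DESeq2 (Acads, Hadh, Hadhb) and 1 when scaled by library totals only (Hadhb). Between AngII_FI and AngII, 0 were called in either direction under each of the 23 alternatives. The median log2 fold change of the 37 genes ran from -0.31 to -0.18 (AngII over saline), 0.10 to 0.18 (AngII_FI over AngII) and -0.14 to -0.07 (AngII_FI over saline) when each library was left out. The share of all tested genes called is not given for these alternatives, except the fit without AngII_FI 3. The cause of the lost and gained calls was not tested. Depth was not varied, and the simulation held no change smaller than 1.5-fold, so the smallest change this design detects was not measured.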
